A study of Mus musculus with 6 samples.

Results

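The guanylate-binding proteins (GBPs) are large GTPases of the dynamin superfamily that cells make in response to interferon. Their genes carry few transcripts in a resting macrophage and are switched on through STAT factors and the interferon regulatory factors by IFN-γ and, less strongly, by type I interferon. The proteins assemble on the membranes of intracellular pathogens and of the vacuoles around them, and several of them feed into inflammasome activation. The transcripts described here are those of 8 mouse genes, Gbp2 to Gbp9, chosen by name out of 12 genes whose name starts with Gbp in a table of 54532 genes. Gbp2b, Gbp10, Gbp11 and the pseudogene Gbp2-ps are the other 4.

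RNA was sequenced from macrophages of mice with normal Grn (wild type, WT) and of animals lacking progranulin (PGRN KO), the secreted and lysosomal glycoprotein that Grn encodes. The strain was C57BL/6J, the labels give the cells as macrophages from the peritoneal cavity, kept overnight in serum-supplemented DMEM before the challenge, and they do not state the age of the mice. All 6 libraries came from wells of 2000000 macrophages that had been exposed to 2000000 cfu of the fungus *Candida albicans* for 6 h, 3 libraries from WT (replicates 1 to 3) and 3 from PGRN KO (replicates 4 to 6). The WT libraries are titled as controls but had received the fungus too, so every difference below is between genotypes under challenge, and nothing in the libraries measures the response to the fungus itself. According to the study's methods, PGRN KO mice were obtained from a supplier other than that of the WT mice, so that genotype and origin of the mice cannot be told apart. The methods of the study describe bone marrow-derived macrophages and another ratio of fungus to cell for this experiment, and the labels were followed. Nothing states whether the 3 libraries of a genotype came from separate mice or cultures, and the p-values therefore measure only the spread between these libraries, which may be technical. With 2 groups of 3, an exact permutation test cannot go below p = 0.1.

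The libraries held 15996786 to 17551619 fragments assigned to genes. Grn was at 323, 337 and 325 FPKM (fragments scaled to gene length and library size) in WT and at 0.0166, 0 and 0.0167 FPKM in PGRN KO, so the genotype labels held in each library. PGRN KO replicate 6 stood apart from the other 5 libraries. The Spearman correlation across genes between its deviation from the gene means and gene length was -0.47, against 0.15 to 0.24 in the others, and results that rest on it are given with and without it. Macrophage markers summed to 7082 to 7416 FPKM in WT libraries and to 7231 to 9715 in PGRN KO libraries. Most of each sum was Lyz2, which reached 8135 FPKM in PGRN KO replicate 6. Of the 6 markers, Csf1r was lower in PGRN KO (32.5 and 24.7 FPKM, limma adjusted p = 0.0178) and Mertk higher (1.41 and 3.24 FPKM, adjusted p = 0.00640). The other 4 did not pass. Gata6, which defines large peritoneal macrophages, averaged 3.95 FPKM in the WT libraries and 4.50 in those from PGRN KO (adjusted p = 0.367). The other two markers of these cells went different ways, Icam2 being higher in PGRN KO, at 3.10 and 5.10 FPKM (limma log2 fold change 0.57, adjusted p = 0.00914), and Timd4, too low to test, averaging 0.149 FPKM in WT and 0.0258 in PGRN KO without overlap. Of 8882 genes with a mean of at least 1 FPKM, 2151 (24.2%) passed an adjusted p of 0.05 between the genotypes in limma, 921 (10.4%) of them higher and 1230 (13.8%) lower in PGRN KO. On a TPM scale, which sets every library to the same sum, 922 were higher and 608 lower.

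Transcripts of 6 of the 7 GBP genes that could be tested were higher in PGRN KO macrophages than in WT (limma on log2(FPKM + 1), adjusted p under 0.05 over all 8882 genes), none was lower, and Gbp7 did not pass. For comparison, 10.4% of all tested genes were called higher. The median log2 fold change of the 7 was 1.04, against -0.03 over all tested genes. In 7 of the 8 genes the lowest PGRN KO library lay above the highest WT library, with Gbp7 as the exception. These 7 include Gbp8, which was too low to be tested. The same was so for 21.2% of all tested genes. One of the 7 tested genes, Gbp4, passed the minimum of 1 FPKM only through its PGRN KO libraries, so a difference in it was a condition of its being counted.

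The genes lie in 2 runs. Gbp5, Gbp7, Gbp3 and Gbp2 stand in this order on the forward strand of chromosome 3 between 142493978 and 142638008 (GRCm38), with Gbp2b between Gbp3 and Gbp2. Gbp8, Gbp9, Gbp4 and Gbp6 lie on the reverse strand of chromosome 5 between 105014150 and 105293698, with Gbp10 between Gbp4 and Gbp6. The gene models of Gbp8, Gbp9 and Gbp4 begin at nearly the same base and share their first exon, in which 60 or 61 exon bases of each overlap those of the others. Related copies and overlapping gene models limit what the counts can separate. Exons of the predicted gene Gm43302 overlap 29.0% of the exon bases of Gbp6, and those of Gm43802 overlap 11.3% of those of Gbp7. Of all 31-base words in the transcripts of Gbp6, 74.3% also occur in transcripts of another gene, most of them in the predicted gene Gm43302, whereas the share is 3.10% for Gbp5, 4.85% for Gbp2, 5.64% for Gbp3, 14.7% for Gbp7, 14.9% for Gbp4, 18.3% for Gbp9 and 31.1% for Gbp8. The values of Gbp6 are therefore uncertain in a way that those of Gbp2, Gbp3 and Gbp5 are not.

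**Figure D1:**
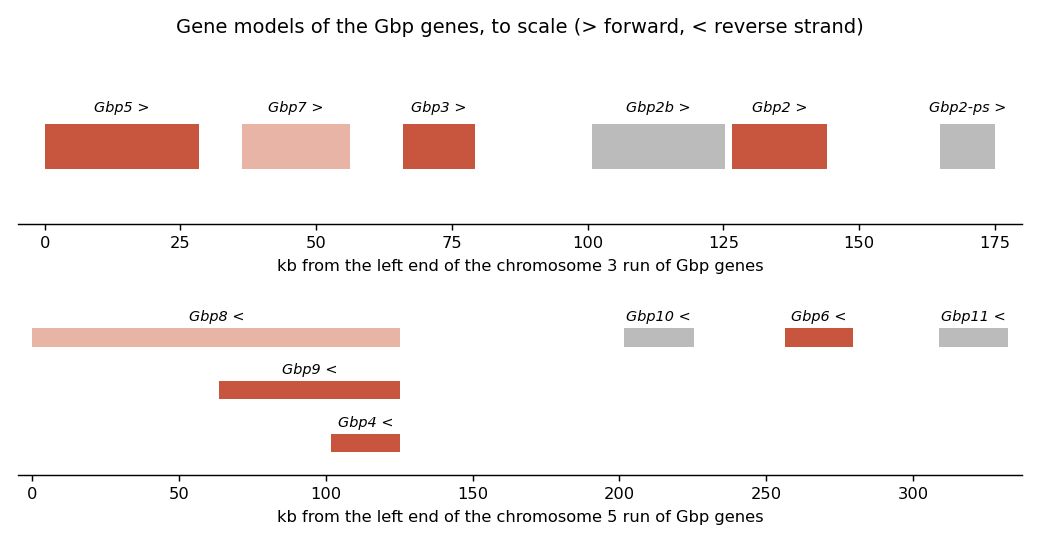
Gene models of the 12 Gbp genes on chromosome 3 (top) and chromosome 5 (bottom), drawn to scale against the distance in kb from the left end of each run, with > and < for the strand. Dark red models passed an adjusted p of 0.05 as higher in PGRN KO, pale red models are the members Gbp7 and Gbp8, which did not pass or were not tested, and grey models are other Gbp genes. The models of Gbp8, Gbp9 and Gbp4 end together on the right.

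Promoter windows were available only for genes of the chromosome 3 run. This run held the most abundant members and, between them, a gene that was nearly silent. Each window runs from 250 bases before to 50 bases after the start that RefSeq gives (GRCm38.p6, forward strand, 5′ to 3′). Capitals mark matches, on either strand, to the interferon-stimulated response element ISRE (GAAANNGAAA, on the other strand TTTCNNTTTC), which interferon regulatory factors bind, and to the IFN-γ activated site GAS (TTCNNNGAA), which STAT dimers bind. Positions are counted from the start, with the base before it at -1. Gbp2 (chr3:142620413-142620712) has 1 ISRE match at -59 to -50. The first of 2 windows of Gbp3 (chr3:142559794-142560093) has 2 that overlap, at -45 to -36 and -39 to -30, and the second window has none. Gbp5 (chr3:142496684-142496983) has an ISRE match at -165 to -156 and GAS matches at -245 to -237 and -52 to -44. Gbp7 (chr3:142530086-142530385) has an ISRE match at -53 to -44 and GAS matches at -106 to -98 and -87 to -79. Gbp2b (chr3:142594597-142594896) has an ISRE match at -137 to -128.
Gbp2: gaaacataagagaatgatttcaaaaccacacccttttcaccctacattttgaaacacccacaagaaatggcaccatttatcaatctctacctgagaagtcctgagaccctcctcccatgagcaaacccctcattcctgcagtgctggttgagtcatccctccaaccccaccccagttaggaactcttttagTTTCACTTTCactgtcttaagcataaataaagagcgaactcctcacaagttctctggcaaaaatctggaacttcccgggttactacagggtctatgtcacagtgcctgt
Gbp3: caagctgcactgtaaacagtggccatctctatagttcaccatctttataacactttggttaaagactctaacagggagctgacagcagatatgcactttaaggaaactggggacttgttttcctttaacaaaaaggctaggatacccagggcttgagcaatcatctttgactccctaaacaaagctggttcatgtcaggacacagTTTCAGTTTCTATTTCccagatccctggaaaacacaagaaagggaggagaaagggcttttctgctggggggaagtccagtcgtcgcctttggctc
Gbp5: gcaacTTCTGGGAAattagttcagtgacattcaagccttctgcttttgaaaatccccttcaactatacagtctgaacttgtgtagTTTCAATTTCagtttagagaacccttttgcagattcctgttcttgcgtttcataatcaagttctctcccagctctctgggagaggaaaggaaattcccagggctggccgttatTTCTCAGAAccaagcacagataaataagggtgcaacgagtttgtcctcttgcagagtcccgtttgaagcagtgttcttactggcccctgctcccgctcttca
Gbp7: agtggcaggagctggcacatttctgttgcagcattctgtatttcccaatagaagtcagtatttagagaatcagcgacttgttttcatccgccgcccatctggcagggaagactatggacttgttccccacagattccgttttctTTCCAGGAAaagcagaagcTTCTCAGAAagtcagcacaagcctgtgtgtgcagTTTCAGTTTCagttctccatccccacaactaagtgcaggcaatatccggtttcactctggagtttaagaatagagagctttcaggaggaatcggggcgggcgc
Gbp2b: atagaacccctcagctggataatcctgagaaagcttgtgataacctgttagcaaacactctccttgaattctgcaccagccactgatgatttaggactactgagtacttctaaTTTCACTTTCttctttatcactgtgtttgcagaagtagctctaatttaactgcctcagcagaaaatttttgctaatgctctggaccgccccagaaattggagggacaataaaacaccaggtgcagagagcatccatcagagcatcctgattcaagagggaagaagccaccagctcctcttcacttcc

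An ISRE match was found in 3.43% of the 32817 RefSeq mouse promoters of this length, a GAS match in 8.29% and both in 0.451%. All 4 members with a window, and Gbp2b, had an ISRE match in at least 1 window, and Gbp5 and Gbp7 had both motifs. The letters alone do not separate Gbp2b, at 5 fragments or fewer per library, from Gbp2 next to it, which had 3459 to 12373. A match is a stretch of letters and was not tested as a binding site in these cells. Gbp4, Gbp6, Gbp8 and Gbp9 were not among the promoters used here.

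Gbp2 was the most abundant member. The protein carries a prenyl group and coats vacuoles of intracellular parasites. It was at 97.0, 116 and 76.2 FPKM in the WT libraries and at 284, 197 and 272 FPKM in the PGRN KO libraries. All 3 PGRN KO values lay above all 3 WT values. The means were 96.3 ± 19.7 and 251 ± 47.0 FPKM (SD, n = 3 each), which is 2.61-fold, and the log2 fold change was 1.38 ± 0.20 (SE, limma, adjusted p = 0.00521).

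Gbp3, the next in level, lies in the same run. WT libraries had 49.2, 57.9 and 40.1 FPKM and PGRN KO libraries 156, 109 and 150 FPKM. The lowest PGRN KO library, replicate 5, was again well above the highest WT library, replicate 2. Gbp3 rose from a mean of 49.1 ± 8.91 to 138 ± 25.7 FPKM (SD, n = 3 each), or 2.82-fold, with a log2 fold change of 1.47 ± 0.18 (SE, limma, adjusted p = 0.00343).

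Gbp5 encodes a prenylated GBP that has been linked to assembly of the NLRP3 inflammasome. Its level was 28.9, 38.5 and 20.7 FPKM in WT and 98.8, 71.1 and 78.5 FPKM in PGRN KO. The groups did not overlap, although WT replicates 2 and 3 differed by as large a factor as the nearest libraries of the 2 groups. The mean went from 29.4 ± 8.91 to 82.8 ± 14.4 FPKM (SD, n = 3 each), 2.82-fold, and the log2 fold change of 1.49 ± 0.23 was, with all 6 libraries, the largest among the members tested (SE, limma, adjusted p = 0.00624).

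Gbp7, the fourth member on chromosome 3, is known for bringing components of the phagocyte oxidase to vacuoles. Its level was 23.3, 26.3 and 18.6 FPKM in WT and 51.5, 42.2 and 24.3 FPKM in PGRN KO. PGRN KO replicate 6 fell inside the WT range while the other two libraries of that genotype lay above it. The means were 22.7 ± 3.85 and 39.3 ± 13.8 FPKM (SD, n = 3 each), 1.73-fold, and the log2 fold change of 0.71 ± 0.27 did not pass (SE, limma, adjusted p = 0.0983). Without PGRN KO replicate 6, the library that stood apart by gene length, it was 1.02 (adjusted p = 0.00421). With libraries weighted by their quality, where replicate 6 received a weight of 0.0899, it was 0.99 (adjusted p = 0.000883), and with each library's trend with gene length removed it was 0.79 (adjusted p = 0.0494). These fits also called more genes in general. In the same order, 3668, 4225 and 2804 of all 8882 tested genes passed, against 2151 in the main fit.

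Of the chromosome 5 genes, Gbp6 and Gbp9 were the most abundant, both at levels below those of any chromosome 3 member. Gbp6 had 6.68, 7.17 and 5.05 FPKM in WT and 10.8, 8.86 and 9.94 FPKM in PGRN KO. The groups were separate, with the smallest ratio of means among the 8 genes, 1.56-fold. Its means were 6.30 ± 1.11 and 9.85 ± 0.949 FPKM (SD, n = 3 each) and its log2 fold change 0.58 ± 0.14 (SE, limma, adjusted p = 0.0244). The call was lost without WT replicate 1 (adjusted p = 0.0741), without WT replicate 3 (adjusted p = 0.0700) and without PGRN KO replicate 4 (adjusted p = 0.0685).

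Gbp9 was at 5.15, 5.83 and 3.78 FPKM in WT and at 14.2, 9.78 and 9.61 FPKM in PGRN KO. PGRN KO replicate 4 was above replicates 5 and 6, which were themselves above every WT library. The means of 4.92 ± 1.04 and 11.2 ± 2.58 FPKM (SD, n = 3 each) differed 2.27-fold, and the log2 fold change was 1.04 ± 0.19 (SE, limma, adjusted p = 0.0105).

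Gbp4, a GBP reported to bind the transcription factor IRF7, was low. It had 0.566, 0.785 and 0.673 FPKM in WT and 2.40, 1.34 and 1.79 FPKM in PGRN KO, on 71 to 312 fragments per library. Each PGRN KO library exceeded each WT library. The means were 0.675 ± 0.109 and 1.85 ± 0.534 FPKM (SD, n = 3 each), 2.73-fold. The log2 fold change of 0.75 ± 0.15 (SE, limma, adjusted p = 0.0149) understates this ratio because 1 was added to values near 1. The call was lost without WT replicate 1 (adjusted p = 0.0673) and without WT replicate 3 (adjusted p = 0.0570).

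Gbp8 stayed under the minimum of 1 FPKM and was not tested in the main analysis. Its values were 0.295, 0.196 and 0.290 FPKM in WT and 0.973, 0.782 and 0.622 FPKM in PGRN KO, from 17, 10 and 18 fragments against 58, 51 and 37. The groups did not overlap and the ratio of means was 3.04. In a fit with no minimum, in which 2.63% of 22912 genes were called higher, its log2 fold change was 0.50 ± 0.10 (SE, limma, adjusted p = 0.0440). Some of its fragments could belong to Gbp9 or Gbp4, with which it shares its first exon, or to Gbp11.

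**Figure D2:**
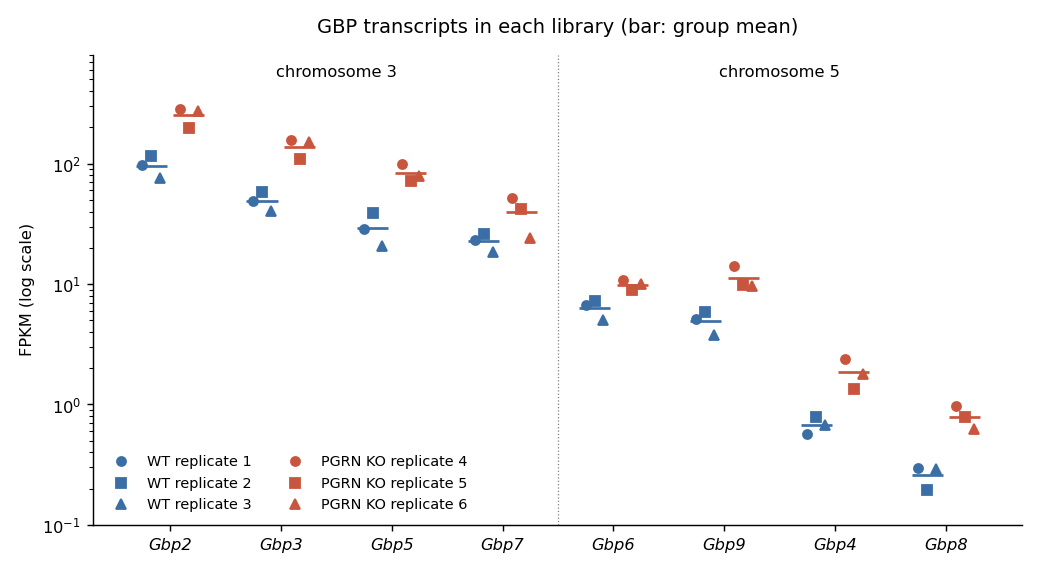
FPKM of each GBP gene (log scale) in the 3 WT libraries (blue) and the 3 PGRN KO libraries (red), with a bar at each group mean, chromosome 3 genes on the left and chromosome 5 genes on the right. The red symbols lie above the blue ones in all genes but Gbp7, where PGRN KO replicate 6, the red triangle at 24.3 FPKM, falls among the WT libraries.

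Requiring a log2 fold change of at least 1 as well as the adjusted p, Gbp2, Gbp3, Gbp5 and Gbp9 remained higher, 4 of the 7 tested, whereas 1.60% of all tested genes met both conditions. These 4 genes were also past an adjusted p of 0.05 in all 15 alternative fits, with log2 fold changes of 1.22 to 1.54 for Gbp2, 1.34 to 1.64 for Gbp3, 1.27 to 1.70 for Gbp5 and 0.87 to 1.23 for Gbp9. The exact permutation test gave p = 0.1, its smallest possible value, for each member but Gbp7, for which p = 0.2.

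**Figure D3:**
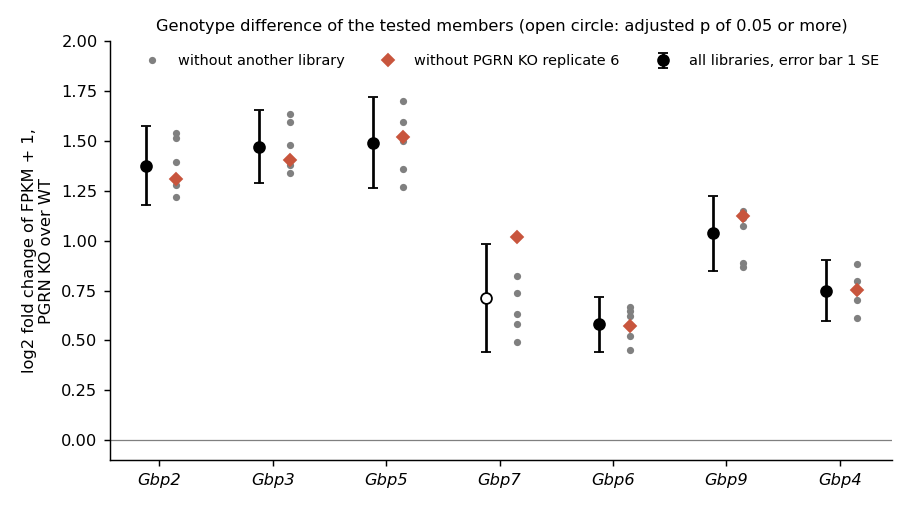
Log2 fold change of FPKM + 1, PGRN KO over WT, of the 7 tested GBP genes. Circles with bars of 1 SE use all 6 libraries (filled: adjusted p under 0.05), grey dots leave out 1 library each, and red diamonds leave out PGRN KO replicate 6. Gbp7 is the gene for which the diamond departs from the rest, at 1.02 against 0.71 with all libraries.

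The members moved alike from library to library. Among WT libraries, replicate 2 had the highest value in 7 of the 8 genes and replicate 3 the lowest in 6. Among PGRN KO libraries, replicate 4 was highest in all 8, while the lowest was replicate 5 in 5 genes and replicate 6 in Gbp7, Gbp8 and Gbp9. FPKM summed over all genes had the same order in WT, at 382266, 409007 and 358073 in replicates 1 to 3. In PGRN KO that sum was 352792, 338094 and 419007 in replicates 4 to 6. The share of all genes with these orders was not counted, so they are not read as a trait of the family. Values of several members from 1 library are not independent of each other.

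Summed over the 8 genes, GBP transcripts amounted to 211, 252 and 165 FPKM in WT and 618, 440 and 547 FPKM in PGRN KO. This is 2.55-fold between the means of 210 ± 43.5 and 535 ± 89.8 FPKM (SD, n = 3 each). The chromosome 3 genes made up most of the sum, from 197 ± 41.4 FPKM in WT to 511 ± 86.2 in PGRN KO, 2.59-fold. The chromosome 5 genes summed to 12.2 ± 2.14 and 23.7 ± 4.05 FPKM, 1.95-fold. Bulk RNA does not tell fewer responding cells from less GBP RNA in each cell.

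Within the sum, Gbp2 took 46.0, 45.8 and 46.0% in WT and 45.9, 44.9 and 49.8% in PGRN KO. The difference of its means was 0.905 points with PGRN KO replicate 6 and -0.557 points without it. The share of Gbp6 was 3.16, 2.84 and 3.05% in WT and 1.74, 2.01 and 1.82% in PGRN KO, without overlap. The share of Gbp7 was 11.0, 10.4 and 11.3% in WT and 8.32, 9.58 and 4.43% in PGRN KO, again without overlap and with replicate 6 lowest. Without that library the difference of the Gbp7 means was -1.94 points in place of -3.45. The mean share of Gbp3 was 23.5% in WT and 25.8% in PGRN KO, a difference of 2.27 points, or 1.44 points without replicate 6. For Gbp3, Gbp6 and Gbp7 the exact two-sided permutation test gave p = 0.1, the smallest it can give, and an adjusted p of 0.267 over the 8 genes. With 3 libraries per group no share could have passed 0.05, so this test cannot decide whether the composition changed. The ratio of Gbp2 to Gbp6 was 15.2 ± 0.815 among WT libraries and 25.4 ± 2.72 among PGRN KO libraries (SD, n = 3 each), while that of Gbp2 to Gbp3 was 1.96 ± 0.0505 and 1.82 ± 0.00432.

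**Figure D4:**
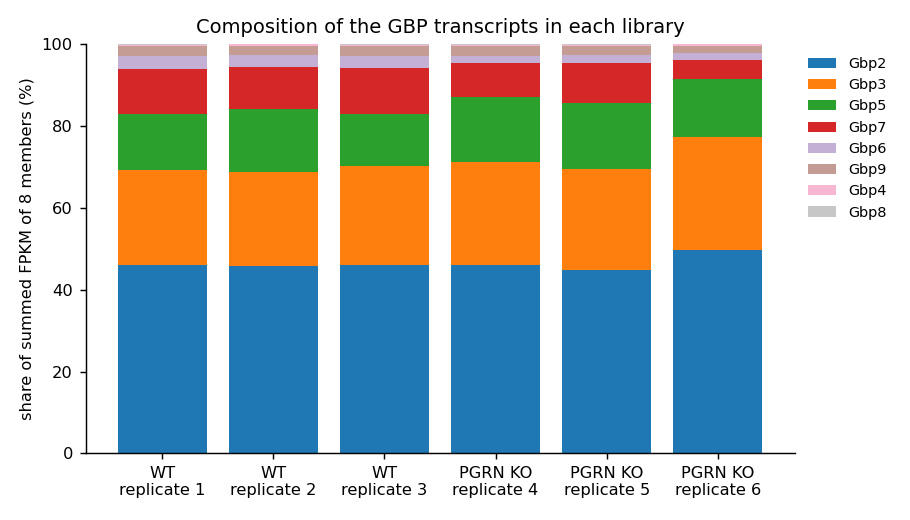
Share in percent of each GBP gene in the summed FPKM of the 8 genes, one bar per library, WT replicates 1 to 3 on the left and PGRN KO replicates 4 to 6 on the right. Gbp2 (blue) takes between 44.9 and 49.8% in every library, and Gbp7 (red) is narrowest in PGRN KO replicate 6, at 4.43%.

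The other Gbp genes were nearly silent in both genotypes, and none reached the minimum for testing. Gbp10 had 0.139, 0.122 and 0.0715 FPKM in WT and 0.462, 0.150 and 0.0747 FPKM in PGRN KO, from 5 to 31 fragments, with 89.8% of its 31-base words shared, mostly with Gbp6. Gbp11 had 1 to 8 fragments per library, Gbp2b had 5 or fewer, and Gbp2-ps had none.

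GBP genes are read out by interferon signalling, and 17 of its genes were examined by role. Of these, 3 were higher and 2 lower in PGRN KO, and 12 did not pass, where 10.4% of all tested genes were higher and 13.8% lower, so the counts lay near the general shares. The median log2 fold change of the 17 was 0.22. Among the ligands, Ifng had 9.96 ± 1.08 FPKM in WT cells against 9.86 ± 2.27 in PGRN KO cells (limma log2 fold change -0.03, adjusted p = 0.908, n = 3 each), and Ifnb1 was at 5.41 ± 1.67 and 7.25 ± 1.77 FPKM (0.38, adjusted p = 0.274). Neither ligand differed beyond the spread of its libraries. Of the kinases next to the receptors, Tyk2 rose from 2.50 to 4.41 FPKM (limma log2 fold change 0.62, adjusted p = 0.00866), whereas Jak1 decreased from 63.0 to 40.9 FPKM (-0.62, adjusted p = 0.0146). Jak2 was at 71.6 and 65.8 FPKM (adjusted p = 0.576). Stat2, a factor of the type I pathway, rose from 44.0 to 64.8 FPKM (limma log2 fold change 0.54, adjusted p = 0.0157) and Usp18, a feedback inhibitor of the type I receptor, from 74.0 to 138 FPKM (0.88, adjusted p = 0.0144). Irf8, which with Irf1 drives many IFN-γ targets in macrophages, was lower, with 54.7 FPKM in WT against 36.9 in PGRN KO (limma log2 fold change -0.57, adjusted p = 0.0293). Irf1 (86.4 and 102 FPKM, adjusted p = 0.265) and Irf7 (116 and 177 FPKM, adjusted p = 0.0775) did not pass. Without WT replicate 1 only 1 of the 17 genes passed, and likewise without WT replicate 3, and 2 did without WT replicate 2. Calls over all 8882 tested genes fell too, from 2151 to 713, 883 and 855 in these fits.

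The other families of interferon-inducible GTPases act beside the GBPs, and 7 of 9 tested genes were higher in PGRN KO, 0 were lower (10.4% and 13.8% of all tested genes), with a median log2 fold change of 0.85. Mx1, an antiviral GTPase, had the largest difference on the log2(FPKM + 1) scale, from 17.5 to 68.7 FPKM (limma log2 fold change 1.91, adjusted p = 0.00119). Iigp1, an immunity-related GTPase that disrupts parasite vacuoles, had the largest ratio of means, 4.91 against 3.93 for Mx1, and rose from 1.79 to 8.81 FPKM (1.80, adjusted p = 0.00206). Mx2 rose from 20.8, 24.2 and 18.1 to 55.2, 41.1 and 53.4 FPKM (1.21, adjusted p = 0.00343) and Ifi47 from 69.2 to 141 FPKM (1.01, adjusted p = 0.00819). The 2 that did not pass were Irgm1, at 54.2 and 58.1 FPKM (adjusted p = 0.537), and Gvin1, at 2.83 and 3.85 FPKM (adjusted p = 0.445). Gvin1 had 3.07, 3.06 and 2.35 FPKM in WT and 4.67, 4.86 and 2.02 in PGRN KO. Its value in PGRN KO replicate 6 lay below every WT library, and those in replicates 4 and 5 above. Without PGRN KO replicate 6 the list still had 7 higher calls. The count of 7 fell to 4 without WT replicate 1 and to 4 without WT replicate 3, where calls over all 8882 tested genes fell from 2151 to 713 and 883.

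Of 11 genes of the inflammasome and of pyroptosis, to which GBPs deliver microbial ligands, 4 were higher (10.4% among all tested genes), 2 lower (13.8% among all tested genes) and 5 did not pass, with a median log2 fold change of 0.13. Gm12250, which encodes the immunity-related GTPase IRGB10 that GBPs bring to bacterial membranes, rose from 35.3 to 80.8 FPKM (limma log2 fold change 1.17, adjusted p = 0.00452). Casp1 rose from 25.2 to 55.2 FPKM (1.09, adjusted p = 0.00520), Il18, a substrate of caspase-1, from 4.99 to 11.8 FPKM (1.09, adjusted p = 0.00863) and the adaptor gene Pycard from 1.35 to 3.14 FPKM (0.80, adjusted p = 0.0130). Transcripts of 2 inflammasome sensors fell, Nlrp3 from 289 to 179 FPKM (limma log2 fold change -0.68, adjusted p = 0.0253) and Nlrc4 from 9.05 to 4.63 FPKM (-0.84, adjusted p = 0.00372). Il1b, Ninj1 and Casp4 did not pass, Casp4, which encodes the receptor of cytosolic lipopolysaccharide, being at 37.6 and 41.3 FPKM (adjusted p = 0.444).

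The prenylation list holds enzymes that attach the lipid anchor of proteins such as Gbp2 and Gbp5 and enzymes that process the protein afterwards. No tested gene of this list passed the limma test, 0 of 5 also at an unadjusted p under 0.05, with a median log2 fold change of -0.05. Rce1, Fnta and Pggt1b were at 6.70, 7.74 and 5.15 FPKM in WT and at 8.58, 6.17 and 4.21 FPKM in PGRN KO. Without PGRN KO replicate 6, Fnta passed as lower (limma log2 fold change -0.41, adjusted p = 0.00820). In that fit 2230 of all 8882 tested genes were lower and 1438 higher. Of the atlastins, relatives of the GBPs that fuse membranes of the endoplasmic reticulum, Atl2 was lower, at 4.01 and 2.34 FPKM (limma log2 fold change -0.59, adjusted p = 0.00743). Atl3, at 4.95 and 7.13 FPKM, did not pass (adjusted p = 0.145) but did without PGRN KO replicate 6 (0.64, adjusted p = 0.00135).

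The tested protein-coding genes nearest to the 2 runs gave no higher call in the limma test of log2(FPKM + 1), but did in some alternatives. They were taken at any distance, and Rap1gds1, for example, ends at 139075201 on chromosome 3, while the run starts at 142493978. Of 16 tested protein-coding neighbours, 4 on each side of each run, 0 were higher, 4 were lower and 12 did not pass in limma, where 6 had an unadjusted p under 0.05, with a median log2 fold change of -0.17. Over all tested genes 10.4% were higher and 13.8% lower, so these counts are read only as a description. With all 6 libraries, 1 neighbour was higher on the TPM scale, 3 were with the gene length correction and 4 with quality weights. Higher calls over all 8882 tested genes were 922, 1376 and 1757 in these fits. Of the 4 lower neighbours in limma on log2(FPKM + 1), those taken for the chromosome 5 run were Lrrc8d (33.4 and 17.7 FPKM, log2 fold change -0.88, adjusted p = 0.00277) and Zfp326 (-0.45, adjusted p = 0.0208). Those taken for the chromosome 3 run were Eif4e (-0.62, adjusted p = 0.00328) and Lmo4 (-0.44, adjusted p = 0.0207). The number of neighbours passing depended on single libraries. It was 2 without WT replicate 1, WT replicate 2 or PGRN KO replicate 4, and 10, of which 4 were higher, without PGRN KO replicate 6. Over all 8882 tested genes, 713, 855, 1390 and 3668 passed in these fits, the last with 1438 higher.

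**Figure D5:**
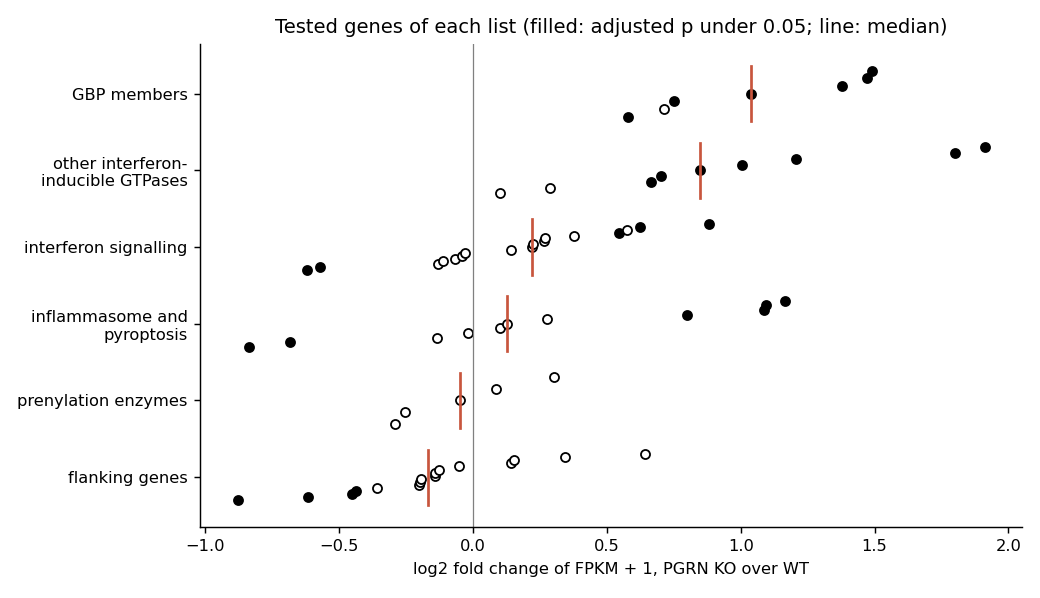
Log2 fold change of FPKM + 1, PGRN KO over WT, of the tested genes of each list, 1 circle per gene (filled: adjusted p under 0.05), with a red line at the median of each list. The medians are 1.04 for the GBP genes and 0.85 for the other interferon-inducible GTPases, and the nearest tested genes around the 2 runs lie mostly below 0.

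Across the 7923 protein-coding genes compared, those whose values over the 6 libraries were most like the average of the tested GBP genes were Rsad2, Il18, Ifit1, Tmem67 and Trim30c. Likeness was the root mean square difference of centred log2(FPKM + 1) values, which was 0.0635 for Rsad2, 0.0941 for Il18, 0.0980 for Ifit1, 0.104 for Tmem67 and 0.105 for Trim30c. The GBP genes themselves lay between 0.0574 (Gbp9) and 0.319 (Gbp7) from their own average. Rsad2, which encodes the antiviral enzyme viperin, averaged 445 ± 59.7 FPKM in WT and 907 ± 107 in PGRN KO libraries (SD, n = 3 each).

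Markers of other cell types were low, and their sums did not overlap between genotypes in 4 lists. Mast cell markers summed to 2.01 to 2.76 FPKM in WT and 8.97 to 13.7 FPKM in PGRN KO, and B cell markers to 1.41 to 2.47 and 6.31 to 8.77 FPKM, with groups not overlapping in 4 of 4 genes of each list. T cell markers summed to 0.961 to 1.36 FPKM in WT and 2.11 to 2.56 FPKM in PGRN KO, with groups not overlapping in 4 of 5 genes. Of all tested genes, 21.2% were higher in PGRN KO without overlap, but most of these markers were too low to be tested, so that share is no direct comparison. NK cell markers, which together with T cells mark the usual sources of IFN-γ, summed to 0.129 to 0.251 and 0.0940 to 0.175 FPKM. Neutrophil markers summed to at most 0.439 FPKM in any library, with Ly6g at 0 in all 6, and mesothelial markers to at most 0.319 FPKM. The sum of the dendritic cell markers was lower in PGRN KO, at 1.77 to 2.23 FPKM in WT and 1.08 to 1.36 in PGRN KO. Of the 3 genes, Xcr1 (means of 1.16 and 0.388 FPKM) and Flt3 (0.320 and 0.120 FPKM) were lower without overlap. Zbtb46 went the other way, at 0.550 and 0.698 FPKM, with overlap. The part of these cells in the GBP difference was not tested.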

How the data were processed

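The authors deposited 1 table of FPKM values for the 6 libraries, with gene coordinates. The submitters' processing notes name CASAVA, HISAT2 2.0.5, featureCounts 1.5.0-p3, DESeq2 1.20.0 and the build mm10 (GRCm38), whereas the study's methods name other versions and another counter. Libraries were poly-A selected and read as pairs, and no source used here gives a strand setting. Values multiplied by gene length fell on whole fragments within a tolerance of 0.001 in 100% of cases, which gave the fragment counts per gene and library (15996786 to 17551619 in all), so that genes with few fragments are the least precise. The FPKM divisor was not the fragment total but a scaled library size. It lay close to the total in PGRN KO replicate 6, at 17282814 against 17291015. FPKM sums differed between libraries, from 338094 in PGRN KO replicate 5 to 419007 in PGRN KO replicate 6. The cause was not tested.

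FPKM is not a count, so log2(FPKM + 1) was tested with limma 3.58.1 in R 4.3.3 (variance trend, two-sided, Benjamini-Hochberg over 8882 genes with a mean of at least 1 FPKM, threshold 0.05) in place of the count test of the study's methods. The code was tested on simulated data. Alternatives changed the pseudocount (0.1), the minimum (none, or 5 FPKM), the scale (TPM, quantile), the variance trend, sample quality weights, limma-voom on recovered fragments, a correction for gene length (loess, span 0.5) and each library in turn. Shares were compared by exact permutation tests. Motifs were searched in RefSeq promoters, and shared 31-base words in GENCODE M21 transcripts, which had the same position as the deposited gene for 98.3% of identifiers found.

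Members and lists were chosen with earlier results of these data known. All members, other Gbp genes, and of each list up to 4 genes past the threshold by size and 3 others by level were named. Ifng, Ifnb1, Stat2, Irf8, Pycard and Nlrp3 were added after their values were seen. One gene of the interferon signalling list is not reported here and was left out of its counts.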

Additional observations from a re-analysis of the deposited data

How the results depend on the processing

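The difference between genotypes stayed positive for each tested GBP gene in every alternative fit, and Gbp2, Gbp3, Gbp5 and Gbp9 stayed past the threshold in all 15. Gbp4 passed in 11 of 14, Gbp6 in 11 of 15 and Gbp7 in 3 of 15. With no minimum on FPKM, the log2 fold changes of Gbp4 (0.75, adjusted p = 0.0545) and Gbp6 (0.58, adjusted p = 0.0667) no longer passed. Gbp7 passed with quality weights (0.99) and with the gene length correction (0.79). Leaving out 1 library at a time gave log2 fold changes of 0.49 to 1.02 for Gbp7, 0.61 to 0.88 for Gbp4 and 0.45 to 0.67 for Gbp6, and 4 to 7 members past the threshold. On recovered fragments, uncorrected for length, the difference in share was 3.39 points for Gbp5 and -1.78 points for Gbp6, against 1.66 and -1.16.

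The number of genes called over the whole table was 1366 with no minimum, 4225 with quality weights and 2804 with the gene length correction. It was 233 with a log2 fold change of at least 1, and 713 to 3668 without 1 library. With quality weights the counts were 9 for interferon signalling, 1 for prenylation enzymes, 2 for atlastins and 12 for neighbours (4 higher). With the gene length correction they were 1 for prenylation enzymes, 2 for atlastins and 7 for neighbours (3 higher). With a log2 fold change of at least 1 they were 0 for interferon signalling, 4 for other GTPases, 3 for inflammasome genes, 0 for atlastins and 0 for neighbours. With a minimum of 5 FPKM, 0 atlastins were called. Without 1 library the counts ranged from 1 to 7 for interferon signalling, 4 to 7 for other GTPases, 4 to 6 for inflammasome genes, 0 to 1 for prenylation enzymes, 1 to 2 for atlastins and 2 to 10 for neighbours. The cause of these shifts was not tested. No GBP gene's called difference changed sign. Differences in share that were smaller than their spread did: Gbp2 (0.905 points, -0.557 without PGRN KO replicate 6), Gbp4 (0.0115 points, -0.0187 when WT replicate 1 and -0.0128 when PGRN KO replicate 4 was left out) and Gbp8 (0.0187 points, -0.00786 without WT replicate 2). Calls over the whole table were mostly lower (921 higher, 1230 lower) but mostly higher on the TPM scale (922 and 608), with voom (1093 and 1058) and with a log2 fold change of at least 1 (142 and 91). No paired analysis was possible because replicate numbers run from 1 to 3 in WT and from 4 to 6 in PGRN KO, with none in common. Depth limits Gbp8, Gbp10, Gbp11 and Gbp2b, which rest on 58 fragments or fewer per library.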
